A study of Drosophila melanogaster with 3 samples.

Results

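Serine protease and serpin genes of *Drosophila melanogaster* were compared between embryos wounded with a laser and unwounded embryos. The group holds 50 genes of the 8247 that had complete data. Genes were chosen by current symbol: numbered serpins (Spn), Jonah proteases (Jon), numbered Ser, SP and SPH genes, trypsins (symbols ending in Try) and a short list of cascade proteases. The rule reads gene symbols alone, and the group was picked with earlier results of these data known. In the reference annotation and on the array together, 78 symbols met that rule. The 28 others, among them *snk*, *gd*, *ndl*, *modSP* and *MP1*, had no probe of their own and were not analysed here. The symbols with SP and a number also take in *SP1029*, an aminopeptidase gene of the metalloprotease kind, and *SP2353*, whose protein carries laminin G domains. They were kept because the symbol rule names them, and they are not serine proteases. Whether *SP1173* and *SP2523*, taken in by the same form of symbol, are serine protease genes was not checked.

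Trypsin-like serine proteases cut other proteins after a catalytic serine attacks the peptide bond, and many are made as inactive zymogens that another protease has to cut. In flies such proteases form cascades outside the cell. One cascade ends with Easter cutting the ligand Spätzle in the early embryo, which sets the dorsoventral axis through the receptor Toll. Another ends with the Spätzle processing enzyme during infection, and a related branch activates prophenoloxidase, the enzyme that blackens wounds. Serpins are suicide inhibitors that trap their target proteases and keep these cascades short. Jonah proteases and most trypsins are digestive enzymes of the gut.

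Both groups were wild-type embryos. RNA of wounded embryos carried the dye Cy5 and RNA of unwounded embryos the dye Cy3 on each of 3 arrays, A, B and C. The labels give no embryonic stage, no time after wounding and no number of embryos, and leave unsaid if each array had its own batch of embryos. The p-values thus cover only array-to-array spread, possibly technical. The dyes were never swapped, and a probe's dye effect and wounding cannot be told apart.

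Each array gave a colour ratio per probe, numbering 12110 on array A, 12068 on B and 12086 on C, and no intensity was used here. Values below are log2 of that ratio, averaged over the probes of a gene, so 0 means equal colours, and values of a gene stand in the order A, B, C. A positive value likely means more transcript in wounded embryos: Cy5 is the usual numerator, and wounded comes first in the title of the series. The sample titles name unwounded embryos first, so results are worded as a high or a low ratio, and all of them exchange if the ratio runs the other way. A ratio carries no level, so the presence of gut, blood cell or fat body transcripts could not be read from their markers. A lower share of cells of 1 type and less RNA per cell cannot be told apart in RNA of whole embryos.

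None of the 50 genes passed the test. With limma on all 8247 gene means and a threshold of 0.05 on the adjusted p, 0 had a high and 0 a low ratio, against 0.497% and 1.47% of all genes (1.96% in either direction). The lowest limma adjusted p of the group was 0.0669, for *Ser7*. At an unadjusted p under 0.05 in limma, 8 genes remained and all 8 had a low ratio, which is 16% of the group. Among all genes 9.65% reached that p with a low ratio and 8.75% with a high ratio (18.4% in either direction). The count rested partly on array A: without it 3 genes of the group reached that p, against 877 of all 8247 genes. Without array B 6 did (1663 of all genes), and without array C 8 did (1268 of all genes).

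Like most genes on the arrays, those of the group lay close to equal colours. Their median log2 ratio was −0.0257, against −0.0002 for all genes, and ran from −0.0442 without array C to −0.0125 without array A. Within 0.1 of 0 lay 34 of the 50 genes, against 4978 of all 8247. Values ran from −0.47 for *Ser7* to 0.12 for *psh*. Of the 50, 31 were below 0 and 19 above, against 4128 below and 4117 above among all 8247 genes. For 49 genes the 95% interval of limma, not adjusted for the number of genes, lay inside −0.5 to 0.5, which also held for 7530 of all 8247. The exception was *Ser7*, with an interval of −0.69 to −0.25. The plot of mean ratios shows that the group had 8 genes below −0.15 (16%, against 12.4% of all genes) and 0 above 0.15 (11.7% of all genes).

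**Figure D1:**
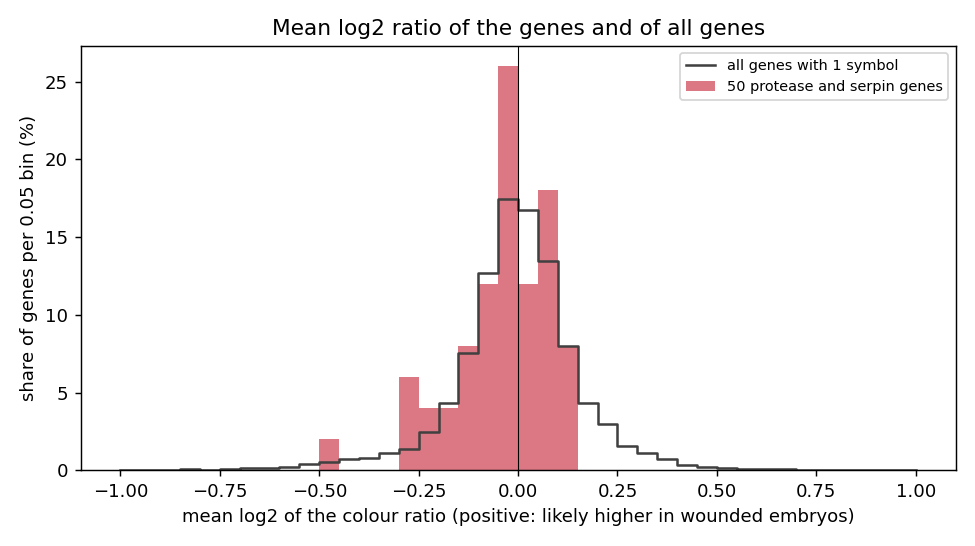
Share of genes (%) in bins of 0.05 of the mean log2 colour ratio. Filled bars are the 50 protease and serpin genes and the line is all 8247 genes, of which 2 lie outside the axis; the group has 8 genes below −0.15 and 0 above 0.15.

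The arrays often disagreed in sign. Of the 50 genes, 15 had the same sign on all 3 arrays (30%, against 41.5% of all genes). Among these, 12 were low on every array and 3 (*psh*, *Hayan* and *Spn28F*) were high on every array, where 20.8% and 20.7% of all genes were low and high. The median SD over the arrays was 0.12 for the group and 0.10 for all genes. Across the 50 genes, Pearson's r was 0.48 between arrays A and B, 0.11 between A and C and 0.13 between B and C. Over all genes the most alike arrays were A and C (r = 0.50), followed by A and B (0.36). These correlations run across genes, which share arrays and clone preparations and are not independent replicates.

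**Figure D2:**
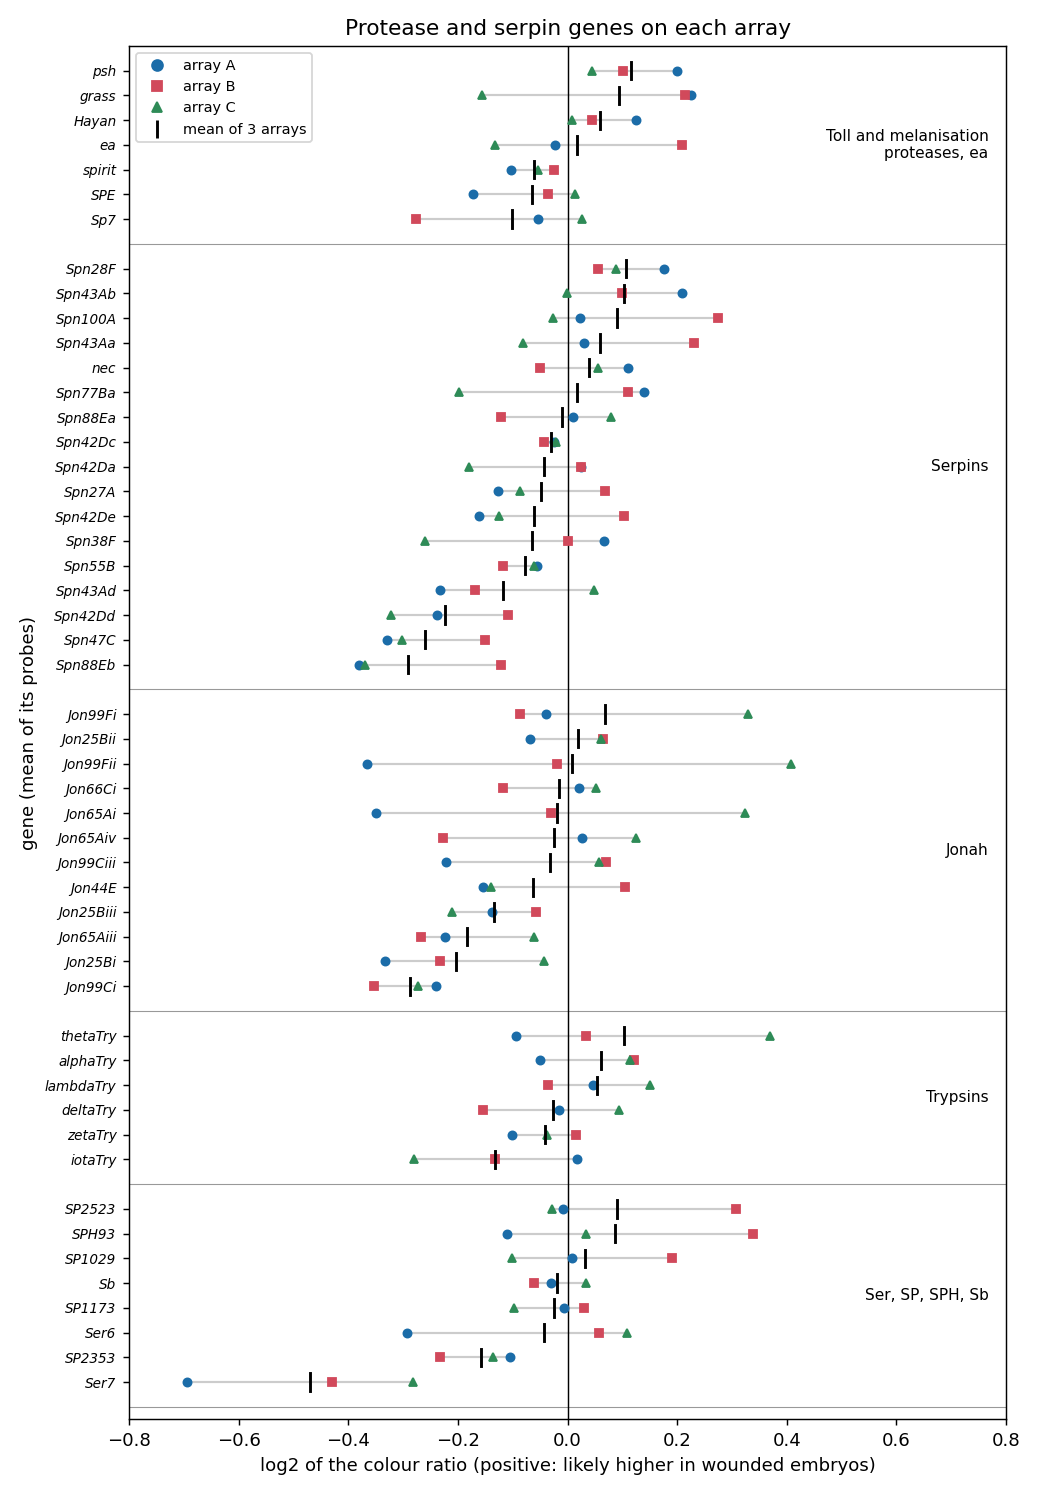
Log2 colour ratio of each gene (mean of its probes) on arrays A (circles), B (squares) and C (triangles), with the mean as a black tick, grouped by role and ordered by mean. Most genes straddle 0, *Ser7* lies lowest at −0.47, and several Jonah genes are spread widely between arrays A and C.

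Among the proteases that act in Toll and prophenoloxidase cascades, 7 genes were measured and all lay between −0.10 and 0.12. *psh* encodes Persephone, which microbial proteases can activate, and had 0.20, 0.10 and 0.05. Its mean of 0.12 ± 0.08 (SD, n = 3) was the highest of the 50 genes and did not pass (limma adjusted p = 0.366). *Hayan*, its neighbour in the genome, acts in melanisation after injury and had 0.12, 0.05 and 0.01. This gene was on the high side of 0 on every array, by little on array C, with a mean of 0.06 ± 0.06 (SD, n = 3; limma adjusted p = 0.632).

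*grass* encodes a protease placed upstream of the Spätzle processing enzyme. It had 0.23 and 0.21 on arrays A and B and −0.16 on array C (mean 0.09 ± 0.22, SD, n = 3; limma adjusted p = 0.635). Array C thus went against the other two. *spirit*, which acts in the same Toll branch, had −0.10, −0.02 and −0.05. All arrays were low by a small amount, and the mean of −0.06 ± 0.04 (SD, n = 3) gave a limma adjusted p of 0.607.

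*SPE*, the Spätzle processing enzyme itself, had −0.17, −0.04 and 0.01. *Sp7*, a protease that takes part in activating prophenoloxidase, had −0.05, −0.28 and 0.03, with a mean of −0.10 ± 0.16 (SD, n = 3; limma adjusted p = 0.534). Both genes were lower than 0 on arrays A and B and just above it on array C. *ea*, the Easter protease of the dorsoventral cascade, had −0.02, 0.21 and −0.13, so its arrays fell on both sides of 0 (mean 0.02 ± 0.17, SD, n = 3). *Sb* encodes Stubble, a membrane-bound protease needed for the shaping of legs and wings, and had −0.03, −0.06 and 0.03.

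The rest of the Toll pathway showed no called gene either. Of 19 listed components outside the protease group, 11 were measured and 0 passed in limma in either direction, with 1 high and 0 low at an unadjusted p under 0.05. Their median was 0.03. *dl*, which encodes the NF-kappaB factor Dorsal, had 0.19, 0.25 and 0.12. It was high on every array, with a mean of 0.18 ± 0.06 (SD, n = 3; limma adjusted p = 0.172). *Dif*, the related factor of the immune response, had 0.30, −0.15 and 0.36, with array B on the other side of 0. The ligand gene *spz*, the substrate of Easter and the Spätzle processing enzyme, had 0.12, −0.21 and 0.05. The receptor gene *Tl* had 0.01, 0.27 and −0.16. Neither *spz* nor *Tl* kept 1 sign.

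Among other melanisation and clotting genes, of 11 listed, 10 were measured and 0 passed in limma, with 1 high and 3 low at an unadjusted p under 0.05. That is 40% of those measured, against 18.4% of all genes in either direction. *PPO1*, a prophenoloxidase gene of crystal cells, had −0.16, −0.07 and −0.20, a low ratio on every array (mean −0.14 ± 0.07, SD, n = 3; limma adjusted p = 0.268). *PPO2*, the other crystal cell prophenoloxidase, had −0.08, 0.05 and −0.21. The lowest means belonged to *Ddc*, the dopa decarboxylase gene, at −0.24, and *yellow-f2*, a dopachrome conversion enzyme gene, at −0.24. The haemocyte markers, 7 measured of 10, had a median of 0.0004 and 0 calls in limma, with 1 gene (*PPO1*) at an unadjusted p under 0.05. *eater*, a phagocytic receptor gene, had the next smallest p and a mean log2 ratio of 0.20 (limma adjusted p = 0.298).

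Serpins made up 17 of the 50 genes, of 28 symbols that met the rule. None passed in limma, and 3 had an unadjusted p under 0.05, all with a low ratio. Their median was −0.04, with 11 below and 6 above 0, where 4128 of all genes were below and 4117 above. *Spn88Eb* had −0.38, −0.12 and −0.37. All 3 arrays were low, array B least, and the mean was −0.29 ± 0.15 (SD, n = 3; limma adjusted p = 0.118). Its genomic neighbour *Spn88Ea* had 0.01, −0.12 and 0.08 and a mean of −0.01.

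*Spn47C* had −0.33, −0.15 and −0.30, a mean of −0.26 ± 0.10 (SD, n = 3; limma adjusted p = 0.107). *Spn42Dd* has been linked to the branch of Toll signalling that answers fungi, and had −0.24, −0.11 and −0.32 (mean −0.22 ± 0.11, SD, n = 3; limma adjusted p = 0.153). In these 3 serpins array B was nearest to 0. The neighbours of *Spn42Dd* were nearer to 0: *Spn42Dc* averaged −0.03, *Spn42De* −0.06 and *Spn42Da*, which has forms that inhibit furin-like proteases, −0.04. *Spn42Dc* was also the steadiest gene of the group, with −0.02, −0.04 and −0.02.

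Other serpins with a known place in the cascades, *Spn27A*, *nec* and *Spn77Ba*, had means nearer to 0 than *Spn42Dd*. *Spn27A* restrains Easter in the early embryo and melanisation later, and had −0.13, 0.07 and −0.09 (mean −0.05 ± 0.10, SD, n = 3; limma adjusted p = 0.735). *nec*, the gene of Necrotic, which holds back Toll signalling through Persephone, had 0.11, −0.05 and 0.06 (mean 0.04 ± 0.08, SD, n = 3; limma adjusted p = 0.780). *Spn77Ba* limits melanisation in the tracheae and had 0.14, 0.11 and −0.20 (mean 0.02 ± 0.19, SD, n = 3). Each of these serpins had arrays on both sides of 0. The highest serpin mean, 0.11 ± 0.06 (SD, n = 3; limma adjusted p = 0.386), was that of *Spn28F*, with 0.17, 0.06 and 0.09.

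The remaining serpins have no role named here, and they differed in which array stood apart. *Spn100A* had 0.02, 0.27 and −0.03, and *Spn43Aa* had 0.03, 0.23 and −0.08, so array B was the high one in both. *Spn38F* had 0.07, 0.00 and −0.26, with array C the low one. *Spn55B* was low throughout, with −0.06, −0.12 and −0.06, and *Spn43Ab* had 0.21, 0.10 and −0.0014.

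The digestive enzymes comprised 12 Jonah genes and 6 trypsin genes, of 27 symbols of both kinds, and 0 passed in limma. At an unadjusted p under 0.05, 3 Jonah genes had a low ratio and 0 trypsins had either. *Jon99Ci*, a chymotrypsin-like enzyme gene of the gut, had −0.24, −0.35 and −0.27. These values were low and close together, and the mean of −0.29 ± 0.06 (SD, n = 3) had a limma adjusted p of 0.0695, the second lowest of the 50 genes. *Jon25Bi* had −0.33, −0.23 and −0.04, with a mean of −0.20 ± 0.15 (SD, n = 3; limma adjusted p = 0.228). *Jon65Aiii* had −0.22, −0.27 and −0.06, with a mean of −0.18 ± 0.11 (SD, n = 3; limma adjusted p = 0.219). In both, array C was nearest to 0.

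Several digestive genes differed between arrays more than most genes did. *Jon99Fii* had −0.37, −0.02 and 0.41, an SD of 0.39 at percentile 97.3 of all genes. *Jon65Ai* had −0.35, −0.03 and 0.32 (SD 0.34, n = 3), and *thetaTry* had −0.09, 0.03 and 0.37 (SD 0.24, n = 3). Array C was the highest and array A the lowest in each of these 3 genes, which were singled out after their values were seen. Of the 18 Jonah and trypsin genes, 15 were lower on array A than on array C, against 7 of 17 serpins and 49.8% of all genes. On arrays A, B and C the medians of the 18 were −0.10, −0.05 and 0.06. The difference between these groups of genes was not tested. In a pair of other Jonah genes array A was also the low one: *Jon99Ciii* had −0.22, 0.07 and 0.06, and *Jon25Bii* had −0.07, 0.06 and 0.06. *Jon44E* had −0.16, 0.10 and −0.14, with array B on its own above 0, and *Jon66Ci* had 0.02, −0.12 and 0.05, with array B below.

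Close relatives make the digestive genes uncertain, since cDNA clones of near-identical copies can bind each other's transcripts. The other trypsins ranged from −0.13 for *iotaTry*, with 0.02, −0.13 and −0.28, to 0.06 for *alphaTry*, with −0.05, 0.12 and 0.11. Both had arrays on both sides of 0. Other gut genes on a list of 20, of which 14 were measured, gave 0 calls in limma, with 2 high and 4 low at an unadjusted p under 0.05 and a median of −0.02. Lowest were *mag*, the gene of a gut lipase, at −0.49, and *yip7*, a chymotrypsin-like protease gene, at −0.37 (limma adjusted p = 0.0655 and 0.0585). The amylase gene *Amy-d* had 0.46 (limma adjusted p = 0.0695). *Amy-p*, the other amylase gene measured, did not share that high ratio, with −0.08, 0.04 and −0.10 (mean −0.05, limma adjusted p = 0.706).

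*Ser7*, a gene of a protease with a clip domain, had −0.69, −0.43 and −0.28. All 3 arrays were low, array A most. Its mean of −0.47 ± 0.21 (SD, n = 3) is a ratio of 0.722, lower than in all but about 1.4% of all genes, with a limma adjusted p of 0.0669. *Ser6* had −0.29, 0.06 and 0.11 and so kept no sign (mean −0.04 ± 0.22, SD, n = 3). *SPH93*, the gene of a serine protease homologue, had −0.11, 0.34 and 0.03 (mean 0.09 ± 0.23, SD, n = 3; limma adjusted p = 0.677). *SP2353* was low on every array, with −0.10, −0.23 and −0.14 (mean −0.16 ± 0.07, SD, n = 3; limma adjusted p = 0.234). *SP2523* had −0.01, 0.31 and −0.03, its mean of 0.09 resting on array B.

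Named serine protease genes outside the symbol rule gave the same count. Of 15 listed, 9 were measured and 0 passed in limma, with 0 high and 2 low at an unadjusted p under 0.05. The lowest was *intr*, with −0.98, −0.88 and −0.37 (mean −0.74 ± 0.33, SD, n = 3; limma adjusted p = 0.0529). The other low gene at that p was *yip7*, which is also on the list of gut genes and was counted there. *scaf*, the gene of Scarface, a protease homologue linked to JNK signalling in dorsal closure, had −0.01, 0.02 and 0.11. *mas*, the gene of Masquerade, a protease homologue of muscle attachment, had −0.07, 0.22 and −0.19. Both averaged near 0, at 0.04 and −0.01.

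Spots that carry plant genes also had low ratios. The 119 such spots with a value on all arrays had array medians of −0.35 (A), −0.22 (B) and −0.16 (C), and their means over the arrays had a median of −0.23. Of these spots, 34 (28.6%) lay at or below the mean of *Ser7*, 49 at or below that of *Jon99Ci* and 49 at or below that of *Spn88Eb*. For *SP2353* the number was 68. The low ratio was not confined to plant genes: all 32 control spots of fly genomic DNA had means below 0. Those means ran from −0.24 to −0.13, with a median of −0.19. Whether the spots' low ratio has a part in that of these genes was not tested.

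**Figure D3:**
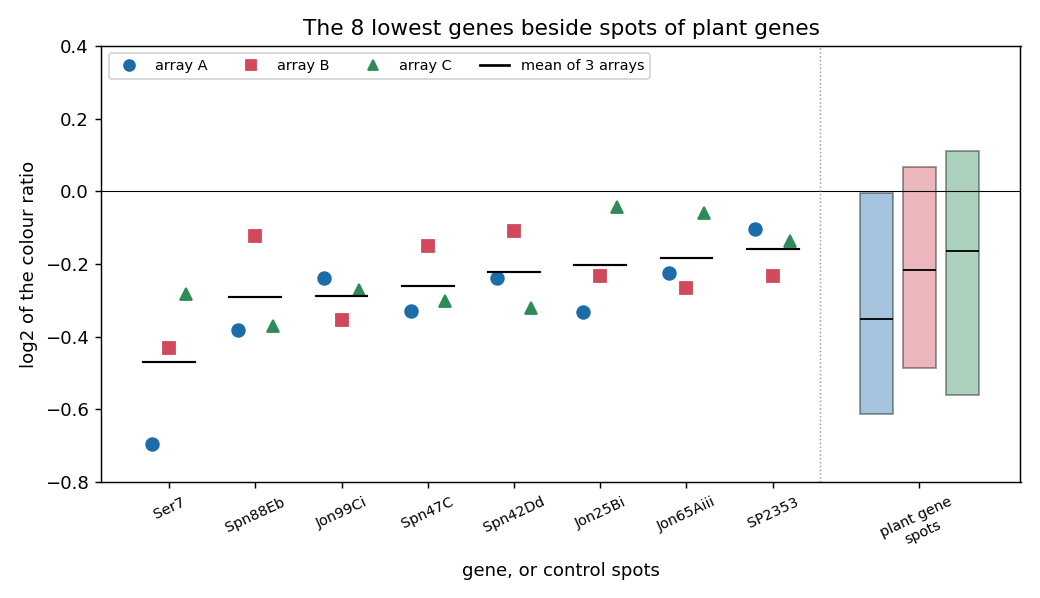
Log2 colour ratio on arrays A (circles), B (squares) and C (triangles) of the 8 genes with the lowest means (black lines), beside boxes of 119 spots of plant genes on each array, which span the quartiles around the median. These 8 also had an unadjusted p under 0.05 in limma; every point of the genes lies below 0, as do the medians of the plant spots.

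The source of the clones differed from that of the array as a whole. Clones of the GH library, made from adult heads, supplied 17 of the 55 probes of the group (30.9%, against 18.2% of all tested probes). The RE library supplied more, 21 (38.2%, against 20.7%), and the LP library 7 (12.7%, against 4.69%), while the LD library supplied 3 (5.45%, against 23.6%). Of the 8 lowest genes, 5 are read by GH clones: *Ser7*, *Spn47C*, *Spn42Dd*, *Jon65Aiii* and *SP2353*. With each library centred on each array, *Ser7* averaged −0.44 (limma adjusted p = 0.0952) and *Jon99Ci*, an RE clone, −0.29 (limma adjusted p = 0.0833). All 8 stayed below 0 with centred libraries, from −0.44 to −0.13.

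When limma weighted the arrays by their reliability, array A received 1.71, array B 0.579 and array C 1.01. In that fit 4 genes passed with a low ratio, against 3.03% of all genes. They were *Ser7* (−0.52, limma adjusted p = 0.0401), *Spn88Eb* (−0.33, limma adjusted p = 0.0479), *Jon99Ci* (−0.27, limma adjusted p = 0.0486) and *Spn47C* (−0.29, limma adjusted p = 0.0489). With equal weights and a threshold of 0.10, *Ser7* and *Jon99Ci* passed with a low ratio, against 3.3% of all genes. With array A, B or C left out, 0 of all 8247 genes passed in limma, those of the group included.

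Only 4 genes were read by more than 1 clone with a single symbol, so most values rest on 1 spot. The plot of clones shows how far they agree. The 2 clones of *grass* moved together, with means of 0.06 and 0.13, both positive on arrays A and B and negative on array C. The clones of *Jon25Biii* had similar means of −0.12 and −0.15 but opposite signs on arrays A and B: 0.16 and −0.39 for clone RE34302, against −0.43 and 0.27 for RH42519. In the mean of this gene the clones offset each other, and its SD was 0.08 (n = 3). A clone that carries *Jon25Biii* beside another symbol, not used in this mean, averaged 0.15, and its re-amplified spot 0.35.

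*Jon65Aiv* had means of −0.04, 0.24 and −0.28 on clones LP08578, LP10918 and RE74144. The last was low on all 3 arrays (−0.29, −0.37 and −0.19), and the second was high on arrays A and C. *Spn43Ad* had −0.29 on RE03378 and 0.05 on RE27547. In the test of all 11887 probes, 0 of the 55 probes of the group passed in limma, against 1.55% of all probes, and 10 had an unadjusted p under 0.05, against 2184 of all 11887.

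**Figure D4:**
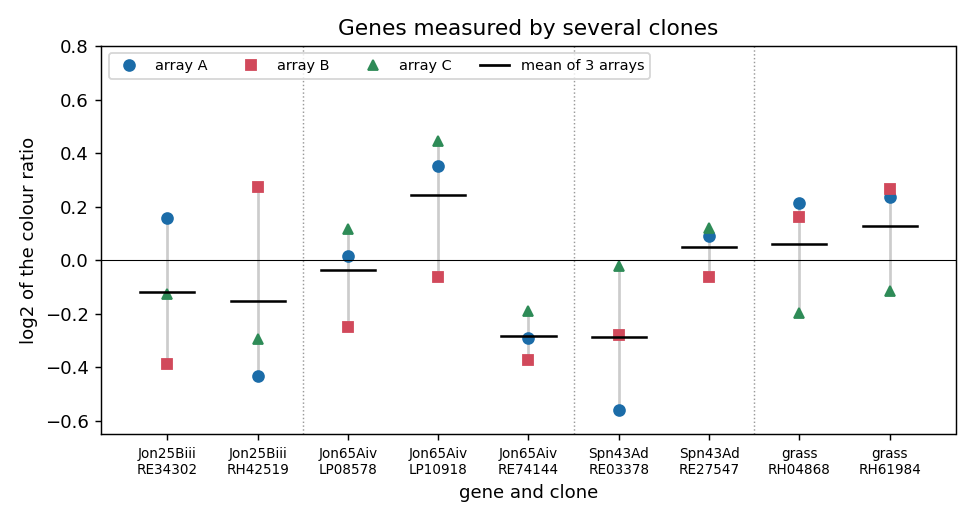
Log2 colour ratio of each clone on arrays A (circles), B (squares) and C (triangles) for the 4 genes with more than 1 clone; black lines are means. The *grass* clones follow each other, the *Jon25Biii* clones have opposite signs on arrays A and B, and the *Jon65Aiv* clones lie at −0.28, −0.04 and 0.24.

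Many of these genes sit side by side in the genome, which the symbol rule did not ask for. In the reference annotation, 28 of the 50 genes form 18 pairs of near neighbours, 11 of them with no other protein-coding gene between. In 12 pairs both means had the same sign and in 6 they did not. Some genes stand in more than 1 pair, and whether neighbours share a sign more often than other genes was not tested. *psh* and *Hayan* were both above 0, *Jon99Fii* and *Jon99Fi* averaged 0.01 and 0.07, and *thetaTry* and *alphaTry* averaged 0.10 and 0.06. *Jon25Bi* at −0.20 lies next to *Jon25Bii* at 0.02, and *Spn43Ad* at −0.12 next to *nec* at 0.04. These are descriptions. On gene means and the log2 scale, 22 of the 50 genes changed sign under at least 1 alternative, 7 of them with all arrays kept. The rest did so only with an array left out, and no count over all genes is set beside these.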

How the data were processed

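The deposited series table gave 1 value per probe and array, used here as a score. All deposited scores were negative, with medians of −1.001, −1.01 and −0.997 on arrays A, B and C and a highest value of −0.01. With the sign removed they were taken for linear colour ratios that the authors had normalized to about 1. That scale is inferred; the sources used here do not give scanner, background correction or normalization method. Per the labels, RNA was taken up in Trizol, cleaned on RNeasy columns and labelled by amino-allyl reverse transcription. Tests used log2 of the unsigned value.

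The 160 control spots were left out. Symbols came from the platform annotation, brought up to date by Entrez identifier from RefSeq's gene table (Release 6 plus ISO1 MT) (9746 of 9917 probes with 1 symbol; 171 kept the old name, *SP2523* among them). Probes with a value on 3 arrays were averaged per gene. The mean of each gene was set against 0 with limma 3.58.1 in R 4.3.3, adjusted by Benjamini-Hochberg over 8247 genes, and tested on simulated data. With 3 arrays the smallest p of an exact sign-flip test is 0.25; the limma calls borrow variance from all genes, and precision is limited by the number of arrays. Errors are SD over arrays.

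The genes and lists were chosen with earlier results of these data known. The text names the 3 largest mean ratios of each role group, genes with several clones, members that passed (none), a range above 0.8 between arrays (0 genes), and, of other lists, members that passed or the 2 of smallest p, with *spz*, *Tl*, *PPO1*, *PPO2*, *scaf* and *mas*. Further members are named for their role or, after their values were seen, for how their arrays differed. Of other lists, *Amy-d* and *Amy-p* are also named, after their values were seen. The fat body list (3 of 6 measured, median 0.12) had 1 call, *Fbp2* (−0.48, limma adjusted p = 0.0359); *Lsp2* had 0.25 (limma adjusted p = 0.135) and *Fbp1* 0.12 (limma adjusted p = 0.541). Wounded and unwounded RNA shared each array, so every ratio is already a comparison within an array. With 1 group of arrays, no further pairing applies.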

Additional observations from a re-analysis of the deposited data

How the results depend on the processing

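Of the 50 genes, 28 kept their sign on gene means under each alternative on the log2 scale, and 22 changed it at least once, 7 of them with all arrays kept. Genes of the group called low numbered 4 with array weights and 2 at an adjusted p of 0.10 (*Ser7* and *Jon99Ci*), and 0 in the other alternatives. Their median ran from −0.0442 to −0.0125 with 1 array left out, lowest without array C. Among all genes, 41 high and 121 low calls became 145 and 250 with array weights, 160 and 272 at 0.10, and 15 and 51 when at least 0.5 in size was required. The other scalings, robust moderation, another choice of clone and other rules on missing or floor values gave 31 to 54 high and 98 to 133 low genes. With each clone library centred, limma gave 0 and 0 (1510 genes at an unadjusted p under 0.05), and on the linear ratio 0 and 0 (1511). Without array A, B or C it gave 0 to 0 high and 0 to 0 low calls, with 877, 1663 and 1268 genes at an unadjusted p under 0.05. Fewer arrays were then tested; otherwise the cause was not tested. Signal over background is unknown, so dim probes could not be left out.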

Other observations

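A further 12 probes carry several symbols, at least 1 of them of a protease or serpin gene in the group or meeting its rule, and were given no gene name. Their means ran from −0.05 to 0.35 with a median of 0.06, 9 above and 3 below 0, and 4 were positive on every array. A clone and its re-amplified spot in this set had 0.13, 0.26 and 0.07 and 0.34, 0.48 and 0.23 on arrays A, B and C. Both carry *Jon25Biii* beside another symbol, and the clones of *Jon25Biii* alone averaged −0.12 and −0.15. The remaining probes positive on every array carry *Jon99Cii* (mean 0.32) and *Jon99Fi* (mean 0.19). Shared probes of *Jon65Aiii* and *Jon66Ci* averaged 0.0002 and −0.05.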
